A study of Neurospora crassa OR74A and Aspergillus nidulans FGSC A4 with 22 samples.

Results

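In *Neurospora crassa*, a filamentous fungus that grows on burnt plant matter, 37 of 9582 genes formed the set described here: their transcripts were at least 4-fold lower in hyphae given Avicel, a microcrystalline cellulose, than in hyphae given no carbon source. The members were chosen by their measured values, as genes with an overall mean of at least 100 normalised counts and a no carbon mean at least 4 times the Avicel mean. Of 7863 genes with an overall mean of at least 100, 38 (0.483%) met both limits, and 1 of them, the cryptochrome gene *cry*, was left out by the rule. The levels and folds that follow therefore describe how the set was chosen and carry no test.

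The RNA came from the wild-type strain OR74A. Cultures had grown for 16 h at 25°C in 2% sucrose, in constant light, and were then washed and moved for 4 h to medium with 2% Avicel or to medium without carbon. Each of the 2 groups had 3 libraries, and the table held 1 mean per gene and group. The study sequenced on more than 1 Illumina instrument, and its methods do not say which library ran on which. It describes the *N. crassa* wild-type data as already published. The other 16 of the 22 samples of the series, from *Aspergillus nidulans* and from mutant strains, were not analysed here. The 3 libraries of a group were biological replicates, as the study calls them.

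Cellulose is not taken up as such, so a hypha meeting it must secrete enzymes before it gains sugar, while a hypha in medium without carbon lives on its own stores. In *N. crassa*, carbon limitation and light are both known to turn on genes of conidiation, the making of asexual spores, and genes of the circadian clock's output. Growth on 2-carbon compounds or on stored lipid is known to need the glyoxylate cycle, which lets acetyl-CoA be turned into sugar.

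Only 6 of the 37 genes had a symbol in the RefSeq gene table, and the other 31 are given by locus number without a role. Among the 6 were the spore hydrophobin gene *eas*, the glyoxylate cycle genes *acu-3* and *acu-9*, the cell wall protein gene *ncw-6*, the regulator gene *ada-6* and the perithecial protein gene *app*. The no carbon mean was between 4.03 and 11.2 times the Avicel mean, with a median of 5.14. On the log2 scale of Avicel over no carbon the median of the set was -2.36, beside 0.01 over the 7863 genes. In 18 genes the fold lay between 4 and 5, in 4 between 5 and 6, in 13 between 6 and 8, and in 2 at 8 or above.

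**Figure D1:**
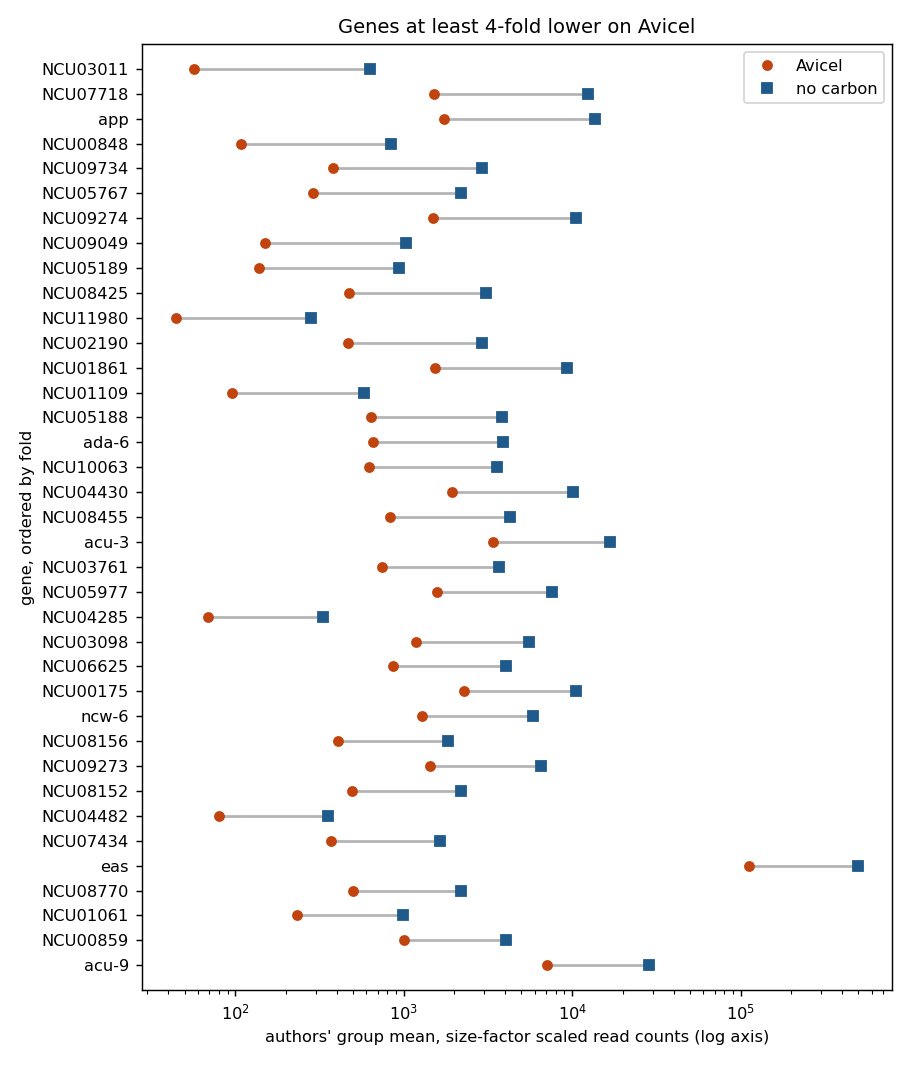
Group means of the 37 genes in normalised read counts on a log axis, with a circle for Avicel and a square for no carbon, ordered by fold from 4.03 (*acu-9*, bottom) to 11.2 (NCU03011, top). *eas* stands alone at the right, with means of 112621 and 499847, and the means come without an error because the table holds 1 value per group.

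The set held both abundant and scarce transcripts, where abundance means normalised counts that are not corrected for transcript length. Its no carbon means ran from 280.1 to 499847 normalised counts, with a median of 3653, and its Avicel means from 44.4 to 112621, with a median of 637. Without carbon 26 of the 37 genes were above the median of the 7863 genes and 5 were in the top 10%, whereas on Avicel 4 were above the median. Together the genes held 1.65% of all normalised counts without carbon and 0.259% on Avicel. Most of that was *eas*, with 1.19% without carbon and 0.196% on Avicel. Without *eas* the set held 0.454% and 0.0630%.

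The most abundant transcript of the set was that of *eas*, which encodes the hydrophobin that coats the conidia with a water-repellent layer. The authors' mean for *eas* was 499847 normalised counts without carbon and 112621 on Avicel, a 4.44-fold difference. Even on Avicel it stayed among the most abundant transcripts, at percentile 99.3 of the 7863 genes.

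The 2 enzymes particular to the glyoxylate cycle were both members. *acu-9*, which encodes malate synthase, had a mean of 28551 without carbon and 7081 on Avicel. *acu-3*, which encodes isocitrate lyase, had a mean of 16823 without carbon and 3382 on Avicel. The folds were 4.03 for *acu-9*, the lowest of the set, and 4.97 for *acu-3*.

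Genes of development and of the cell wall made up the rest of the members with a symbol. The mean of *app*, which encodes an abundant protein of perithecia, the sexual fruiting bodies, was 13611 without carbon and 1738 on Avicel, 7.83-fold lower. The mean of *ncw-6*, which encodes a cell wall protein without a membrane anchor, was 5864 without carbon and 1276 on Avicel, 4.60-fold lower. The mean of *ada-6*, which encodes a zinc cluster transcription factor of asexual and sexual development, was 3885 without carbon and 654 on Avicel, 5.94-fold lower.

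The largest folds belonged to genes known only by locus. NCU03011 had a mean of 632 without carbon and 56.6 on Avicel, an 11.2-fold difference. NCU07718 had a mean of 12419 without carbon and 1504 on Avicel, an 8.26-fold difference, and was the fifth most abundant of the set without carbon. NCU00848, with means of 841 and 108, was 7.75-fold lower on Avicel, and NCU09734, with means of 2920 and 378, was 7.73-fold lower. These 4 and *app* were the 5 largest folds.

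At the other end the limit cut through a continuous range. The 3 members nearest to it were NCU01061 at 4.27-fold, NCU00859 at 4.05-fold and *acu-9* at 4.03-fold. Just outside it lay NCU01402 at 3.98-fold, NCU09272 at 3.98-fold and *gh47-5* at 3.87-fold. Another 273 genes were between 2- and 4-fold lower on Avicel, of which 46 were between 3- and 4-fold lower.

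Each of the authors' means combines whole read numbers from 3 libraries, scaled by 1 size factor per library, so for low means the reads of the single libraries could be worked out. The size factors ran from 0.169 to 2.68, which corresponds to an estimated 9.67 M to 112 M counted reads per library. Depth differed by group, at an estimated 54.9, 50.7 and 9.67 M for Avicel and 112, 105 and 43.0 M for no carbon. The shallowest library was 1 of the 3 Avicel libraries, called library 3 here because libraries are numbered by falling size factor and could not be matched to the submitters' replicate numbers. In it 1 read was worth 5.93 normalised counts. Of 3917 Avicel means below 1000, 3908 had a single solution, and 23 of the 37 genes were among them. The 14 genes without library values were *eas*, *acu-3*, *acu-9*, *app*, *ncw-6*, NCU00175, NCU00859, NCU01861, NCU03098, NCU04430, NCU05977, NCU07718, NCU09273 and NCU09274.

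The 23 genes were set beside the 2129 genes of the same Avicel range whose libraries could be solved. In the set the highest library was a median of 1.65 times the lowest, beside 1.54 over the 2129 genes, and the median coefficient of variation was 28.5%, beside 22.4%. In 7 of the 23 genes (30.4%) the highest library was over 2 times the lowest, beside 28.6% of the 2129 genes.

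**Figure D2:**
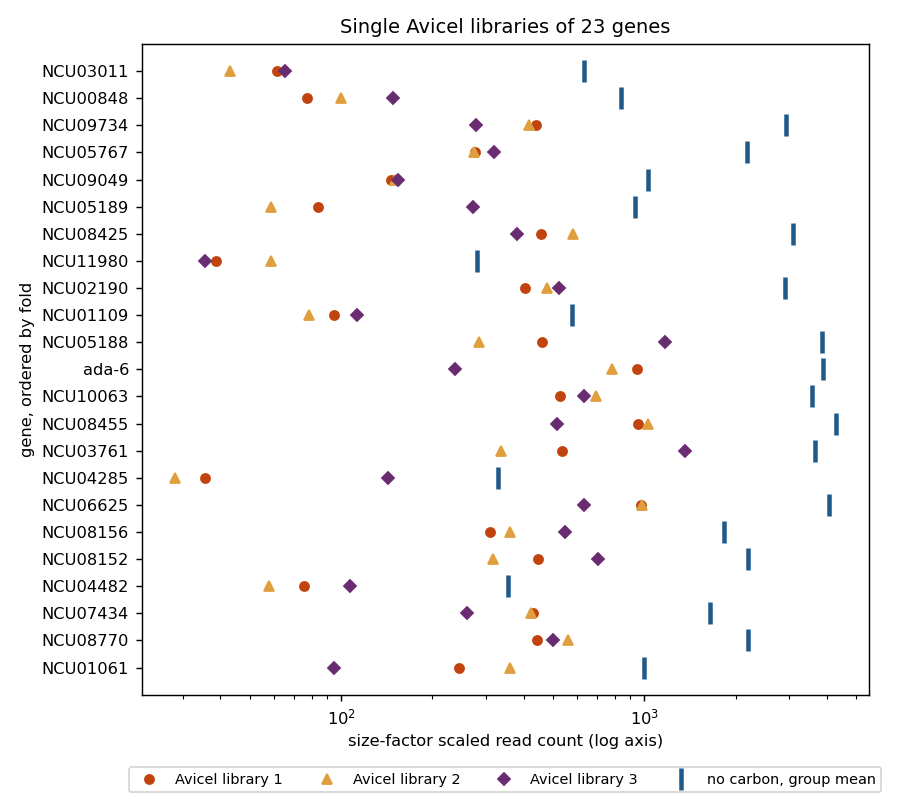
Normalised read counts of the 23 genes in each of the 3 Avicel libraries (circle, triangle and diamond) and their no carbon group mean (bar), on a log axis, ordered by fold. In all 23 genes each Avicel library lies left of the no carbon mean, which the 4-fold limit on the mean of 3 libraries makes certain. The diamonds of library 3 lie far to the right for NCU05189, NCU05188, NCU03761 and NCU04285. They lie far to the left for *ada-6* and NCU01061.

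NCU09049 and NCU05767 were steady from library to library, with the highest library 1.05 and 1.16 times the lowest. NCU09049, with a no carbon mean of 1027, stood at 146, 151 and 154 normalised counts in Avicel libraries 1, 2 and 3. NCU05767, with a no carbon mean of 2188, stood at 277, 275 and 320.2. NCU03011, the gene of the largest fold, varied more and stood at 61.7, 43.0 and 65.2. Its highest library was 1.52 times its lowest, beside a median of 1.54 over the 2129 genes. The 65.2 came from 11 reads, with an exact 95% Poisson interval of 32.6 to 117 that covers counting error only. For all 3 genes every Avicel library was over 6-fold below the no carbon mean.

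A group of genes was high in library 3. NCU04285, with a no carbon mean of 330.0, stood at 35.5, 28.3 and 142 in libraries 1, 2 and 3. The 142 of NCU04285 came from 24 reads and had a counting interval of 91.2 to 212, above the upper bounds of 49.7 and 41.8 in libraries 1 and 2. NCU03761, with a no carbon mean of 3653, stood at 536, 336 and 1364. In these genes and in the neighbouring pair NCU05188 and NCU05189, described with the gene order, library 3 was at least 4 times library 2. Library 3 was the highest of the 3 in 13 of the 23 genes (56.5%), beside 40.3% of the 2129 genes, and the lowest in 8 (34.8%), beside 51.6%. It was also the shallowest library, and whether its depth set these ranks was not tested.

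In the opposite direction, *ada-6* stood at 943, 783 and 237 in Avicel libraries 1, 2 and 3. NCU01061 stood at 245, 360 and 94.9, against a no carbon mean of 994. NCU08455, with a no carbon mean of 4282, stood at 950, 1031 and 516. Library 3 was the lowest in each of these genes.

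The remaining genes with library values varied less than 2.3-fold. NCU08152 stood at 446, 318 and 706 in libraries 1, 2 and 3, against a no carbon mean of 2195. NCU08156 stood at 310, 360 and 546, against 1837. NCU00848 stood at 77.3, 99.6 and 148, against 841. All 3 were highest in library 3.

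In 6 other genes of this kind the highest Avicel value was in library 1 or 2. NCU09734 stood at 438, 416 and 279 in libraries 1, 2 and 3, NCU07434 at 430, 424 and 261, and NCU06625 at 974, 986 and 635. NCU08425 stood at 455, 582 and 379.5, and NCU08770 at 444, 560.2 and 498. NCU10063 stood at 528, 692 and 635. In these genes the no carbon mean was between 1651 and 4051. Of the last 4, NCU02190 stood at 403, 478 and 522, NCU01109 at 95.1, 78.1 and 113, and NCU04482 at 75.3, 57.7 and 107, all highest in library 3. NCU11980 stood at 38.7, 58.9 and 35.6, highest in library 2. In NCU01109, NCU04482 and NCU11980 the library 3 values came from 19, 18 and 6 reads. Their counting intervals of 67.8 to 176, 63.3 to 169 and 13.1 to 77.4 overlapped those of libraries 1 and 2.

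In some genes the fold fell below 4 when a single Avicel library was left out. Set against the highest Avicel library alone, the no carbon mean was at least 2-fold higher in 23 of 23 genes and at least 4-fold higher in 13. The smallest ratio, 2.32, was in NCU04285. With the mean of 3 libraries at least 4-fold below, no single library could reach the no carbon mean, so these counts were in part fixed by the rule. When each Avicel library was left out in turn, 17 of the 23 genes stayed at 4-fold or more. NCU04285 stood at 3.87-fold without library 1, at 3.71-fold without library 2 and at 10.3-fold without library 3, against 4.80-fold with all 3. Without library 2, NCU03761, NCU08152 and NCU04482 also fell below 4-fold, to 3.84, 3.81 and 3.91. Without library 3, NCU03761 stood at 8.37-fold, against 4.90-fold with all 3. Also without library 3, NCU01061 stood at 3.29-fold and NCU07434 at 3.87-fold. These alternatives were chosen after the data had been seen.

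The spread among the no carbon libraries could be seen for only 3 of the genes, those with a no carbon mean below 400, and only as sets of read combinations that fit the mean equally well. For NCU04285 both combinations lay above every Avicel library, the lowest no carbon library being at 284 or 209 and the highest Avicel library at 142. For NCU04482 the lowest no carbon library was at 98.1 or 6.78, below the highest Avicel library at 107, and the highest no carbon library was at least 7.25 times the lowest. For NCU11980 there were 3 combinations, in each of which the highest no carbon library was at least 5.71 times the lowest, and in 2 of them the groups overlapped. The working out of reads was not checked on simulated data at the means of these 3 genes. Whether the true combination is among those listed is therefore not known. Among the 328 genes of the whole table with a no carbon mean between 50 and 100, a lower level than that of the 3 genes, the highest library was over 5 times the lowest in 3.96%.

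A few of the genes lay side by side, and how many would do so in other sets of this size was not worked out. The RefSeq gene table of assembly NC12 gave a place in gene order to 36 of the 37, all but NCU11980. Of these, 4 had another member as an immediate neighbour, in the pairs NCU05188 with NCU05189 and NCU09273 with NCU09274. With 1 gene allowed between, another pair was *eas* and NCU08455, separated by NCU08456, whose mean was 213 without carbon and 190 on Avicel.

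The pair NCU05188 and NCU05189 had the same order of Avicel libraries. NCU05188, with a no carbon mean of 3852, stood at 459, 285 and 1168 in Avicel libraries 1, 2 and 3. NCU05189, with a no carbon mean of 933, stood at 83.6, 58.9 and 273. In both genes library 3 was the highest and library 2 the lowest. The same order was seen in NCU03011, NCU05767, NCU01109, NCU03761, NCU04285, NCU08152 and NCU04482, so it is not particular to the pair. The folds of the pair against the Avicel mean were 6.04 and 6.74. Without library 3 they were 10.4 and 13.1, the latter above the 12.1 of NCU03011 without that library.

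The pair NCU09273 and NCU09274 was more abundant. NCU09274 had a mean of 10595 without carbon and 1499 on Avicel, 7.07-fold lower, and NCU09273 had a mean of 6498 without carbon and 1436 on Avicel, 4.53-fold lower. The next gene beyond NCU09273 was NCU09272, which at means of 7065 and 1776 missed the limit at 3.98-fold, so that 3 genes in a row were lower on Avicel by about 4-fold or more.

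The genes next to the members were read in the same way. Of 51 other immediate neighbours with an overall mean of at least 100, 13 (25.5%) were at least 2-fold lower on Avicel, beside 3.96% of the 7863 genes, and 36 (70.6%) were lower by any amount, beside 49.6%. Among the 13, NCU05978 and NCU08153 met the limit of 100 only through the no carbon group, as their Avicel means were below it. The median of the 51 was -0.23 on the log2 scale, beside 0.01 over all genes. Just 1 of them was at least 2-fold higher, the anchored cell wall protein gene *acw-10* beside NCU03011 (14139 without carbon and 35566 on Avicel), where 7.58% of all genes were. Within 2 genes on either side, 19 of 96 (19.8%) were at least 2-fold lower and 4 at least 2-fold higher. The difference from the rest of the genome was not tested. The kit named for these libraries does not mark strand. The study counted reads on unique exons, and how far this set aside reads shared by overlapping neighbours was not worked out.

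**Figure D3:**
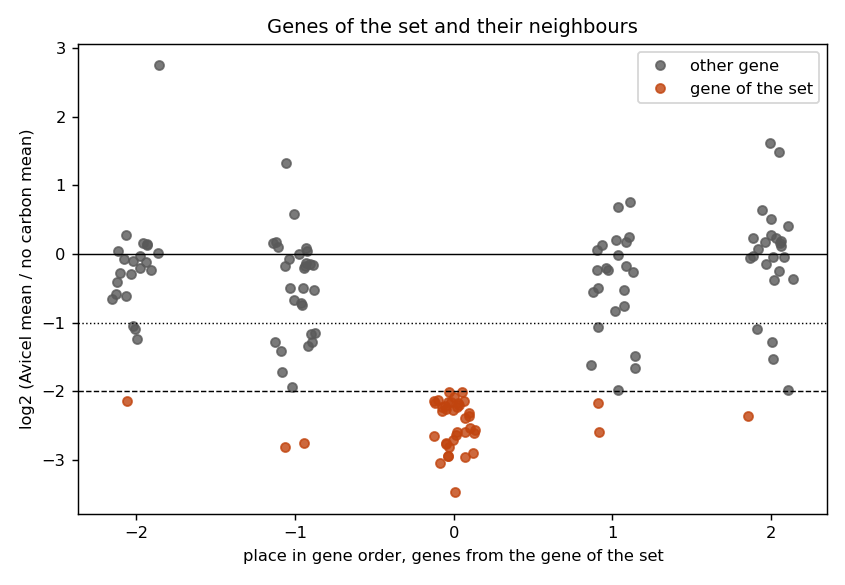
The log2 ratio of the Avicel mean to the no carbon mean for the genes of the set (position 0) and for genes 1 and 2 places away in gene order, with an overall mean of at least 100. Dotted and dashed lines mark 2-fold and 4-fold lower on Avicel, and coloured points away from position 0 are members next to, or 1 gene from, another member.

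The neighbours that were lower included genes of known roles. *con-6*, a conidiation gene, and NCU08771 flanked NCU08770, and were lower on Avicel at 8475 against 25928 and at 34301 against 83405 normalised counts. *al-2*, which encodes a carotenoid enzyme, lay beside *ncw-6*, with 12557 on Avicel and 35220 without carbon. *pks-3*, which encodes a polyketide synthase, lay beside *ada-6*, with 2852 on Avicel and 6344 without carbon.

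Closest to the limit among these neighbours after NCU09272 was NCU08155, beside NCU08156, with a mean of 2065 on Avicel and 7942 without carbon. NCU05978, beside NCU05977, had 65.0 on Avicel and 214 without carbon, and NCU08153, beside NCU08152, had 56.1 and 179. NCU05977 itself had means of 1566 and 7612. The gene after NCU05767 was *poi-2*, which is expressed in sexual development and which the rule left out by name. Its overall mean was 65.9, below the limit of 100, with 5.75 on Avicel and 126 without carbon.

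The members not yet described were NCU00175, NCU01861, NCU03098 and NCU04430, which are given here with NCU00859. Their no carbon means ran from 4061 in NCU00859 to 10602 in NCU00175, and their Avicel means from 1004 to 2270. They were between 4.05- and 6.11-fold lower on Avicel. Beside NCU01861 lay NCU01862, with 2049 on Avicel and 5008 without carbon, and 2 genes from NCU00175 lay NCU00177, with 2591 on Avicel and 922 without carbon.

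The gene *eas* belongs to those turned on by light, the clock and conidiation. A list of 27 genes of these processes was therefore read beside the set. The list includes photoreceptor and regulator genes such as *wc-1*, *wc-2*, *phy-1* and *phy-2*. All 27 had an overall mean of at least 100. On Avicel 16 of the 27 were at least 2-fold lower, beside 3.96% of all genes, and 3 were at least 2-fold higher, beside 7.58%. Of the 26 genes without *eas*, 15 were at least 2-fold lower. The 15 include *cry*, which met both limits of the rule and was left out of the set by name only. Also among them is *con-13*, which met the limit of 100 only through the no carbon group. Its means were 68.9 on Avicel and 207 without carbon. The median of the 27 was -1.11 on the log2 scale, and 22 were lower by any amount, beside 49.6% of all genes. As *eas* and *cry* both met the limits, the counts of 16 and 22 and the median were in part fixed by the rule. The list was put together with results of these data known.

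**Figure D4:**
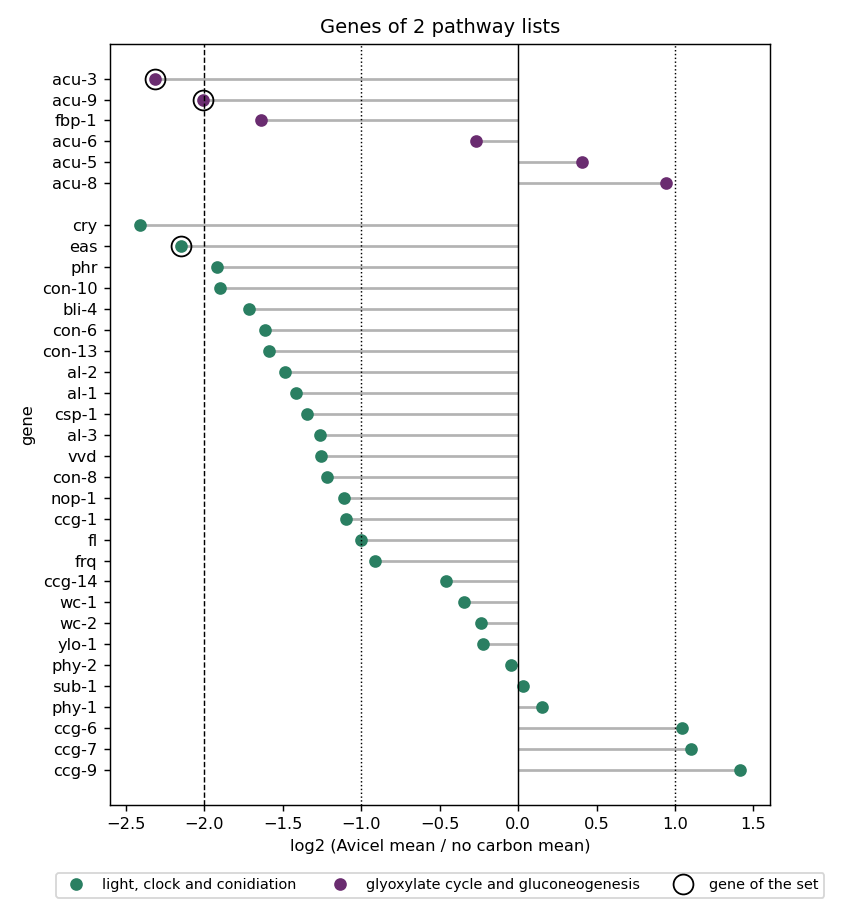
The log2 ratio of the Avicel mean to the no carbon mean for 27 genes of light, clock and conidiation and 6 genes of the glyoxylate cycle and gluconeogenesis, with open circles around the 3 that belong to the set. Dotted lines mark 2-fold and the dashed line 4-fold; *ccg-6*, *ccg-7* and *ccg-9* lie beyond the dotted line on the right.

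The genes of light and pigment in the list ranged from *phr*, just under the 4-fold limit, to genes with nearly equal means. *phr*, the photolyase gene, had a mean of 3865 without carbon and 1020.4 on Avicel, 3.79-fold lower. The carotenoid genes *al-1* and *al-3* were 2.67- and 2.40-fold lower and *al-2* 2.80-fold lower, while *ylo-1*, which acts late in that pathway, was 1.17-fold lower. The photoreceptor gene *vvd* was 2.39-fold lower, the opsin gene *nop-1* 2.16-fold lower and the blue-light-induced gene *bli-4* 3.29-fold lower. The means of *wc-1* and *wc-2*, which encode the white collar photoreceptor complex, were 1.27- and 1.18-fold lower, and that of the clock gene *frq* 1.88-fold lower. The phytochrome genes *phy-1* and *phy-2* were at log2 ratios of 0.15 and -0.05, and the transcription factor gene *sub-1* at 0.03, of which *phy-1* and *sub-1* turned to -0.31 and -0.43 when both groups were scaled to equal sums of counts.

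Conidiation genes had ratios of the same kind. *con-10* had a mean of 9292 without carbon and 2492 on Avicel, 3.73-fold lower. *con-6*, *con-13* and *con-8* were 3.06-, 3.01- and 2.33-fold lower. The regulator genes *csp-1* and *fl*, whose products drive conidial separation and conidiophore development, were 2.54- and 2.00-fold lower.

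Clock-controlled genes went both ways. *ccg-1*, with means of 947393 and 442150, was 2.14-fold lower on Avicel, and *ccg-14* was 1.38-fold lower. *ccg-7*, which encodes the glycolytic enzyme glyceraldehyde-3-phosphate dehydrogenase, was 2.15-fold higher, *ccg-6* 2.06-fold higher and *ccg-9*, a trehalose synthase gene, 2.67-fold higher on Avicel, and with equal sums none of the 3 reached 2-fold. *cry*, left out of the set by the rule, was 5.31-fold lower.

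Of 6 genes of the glyoxylate cycle and of sugar synthesis from acetate, 3 were at least 2-fold lower on Avicel and 0 at least 2-fold higher, where 3.96% and 7.58% of all genes were. The count of 3 includes the members *acu-3* and *acu-9*, which the rule fixed as lower. Of the 4 genes that were not members, 1 was at least 2-fold lower, and their median was 0.07 on the log2 scale. Besides *acu-3* and *acu-9*, the fructose bisphosphatase gene *fbp-1* was lower, with a mean of 10405 without carbon and 3344 on Avicel, 3.11-fold lower. The phosphoenolpyruvate carboxykinase gene *acu-6* was 1.20-fold lower. The acetyl-CoA synthetase gene *acu-5* was 1.32-fold higher on Avicel as deposited and slightly lower, at -0.050 on the log2 scale, with equal sums. The acetyl-CoA hydrolase gene *acu-8* was 1.92-fold higher on Avicel.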

How the data were processed

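Per the study's methods, RNA-seq reads were mapped with TopHat 2.0.4 to predicted transcripts of the OR74A genome, whose build is not given in the sources used here, and reads on unique exons were counted with HTSeq. The authors deposited signal values, which are means per group of these counts after division by DESeq size factors, called normalised counts here, and the overall mean is over both groups. The fold change, p-value and adjusted p-value columns of the same table hold the authors' own comparison and were not used. No unmapped sample columns were met. Folds are ratios of the 2 group means, without a pseudocount. As the table has no values per library, no count test was run. Means carry 10 significant digits, and low means were solved for whole reads and size factors of the 3 libraries. This step was tested on simulated data for single solutions only. The simulated means were below 1000 with size factors like those of Avicel and below 100 with size factors like those of no carbon. Levels were not compared per length between genes. Symbols and gene order came from RefSeq, assembly NC12, in which 9078 of the 9582 genes and 36 of the 37 members have an entry. Named genes were, by rule, all members, with full values for those with a symbol, the 5 largest folds, the 5 highest no carbon means, the neighbouring members, the 3 genes on each side of the limit and the listed genes. The members and lists were chosen with earlier results of these data known. Alternatives were other limits, scaling to equal sums, recentring, a pseudocount of 10 and leaving out libraries. Sequence-based steps were not run, as no sequences were used here. Python 3.11.15, numpy 2.4.6, pandas 2.3.3, scipy 1.17.1 and matplotlib 3.10.9 were used.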

Additional observations from a re-analysis of the deposited data

How the results depend on the processing

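The number of genes at least 4-fold lower depended on the limits and on the scaling. With a fold limit of 3 the set held 83 genes and with a limit of 8 it held 2. With both groups scaled to equal sums of counts, which moved every gene by -0.45 on the log2 scale, it held 86 genes, and the median of the 37 members was -2.82. Under that scaling *phy-1*, *sub-1* and *acu-5* turned from higher to lower on Avicel, at -0.31, -0.43 and -0.050. The genes at least 2-fold lower then numbered 914 and those 2-fold higher 343, against 311 and 596 as deposited. Among the 51 neighbours they numbered 19 (37.3%, beside 11.6% of all genes) and 0, and *ccg-6*, *ccg-7* and *ccg-9* no longer reached 2-fold. Without *eas* the members held 0.454% of counts without carbon and 0.0630% on Avicel. Leaving out each Avicel library in turn left between 19 and 22 of 23 genes at 4-fold or more. With an overall mean limit of 50 or 500 the set held 40 or 31 genes. No paired analysis was possible because the table holds group means and the recovered libraries carry no replicate number. Other promoter windows and other cut-offs for *A. nidulans* homologs were not run, as no sequences were used here. Depth limits the Avicel values most in library 3, where 1 read is worth 5.93 normalised counts. The spread of the no carbon group could be given, in part, for 3 members only, as read combinations not checked on simulated data.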

Other observations

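Genes with a symbol that fell between 2- and 4-fold lower on Avicel numbered 41 of 273. Besides the listed genes they included *acon-3*, a conidiophore gene, at 1821 normalised counts without carbon and 639 on Avicel, and *bli-3*, a blue-light-induced gene, at 57379 and 20319. *cat-1*, a catalase gene, had means of 29106 without carbon and 10568 on Avicel. Sulphur genes were among them, with *cys-14*, a sulphate permease gene, at 1385 and 516. The fatty acid synthase genes *cel-1* and *cel-2* lay side by side by locus number, at 2319 and 4360 without carbon and 1124 and 2101 on Avicel. These genes were picked after their values were seen.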
